A study of Mus musculus with 10 samples.

Results

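The genes described here build or dissolve an epithelium. They are 35 of the 47729 genes in the count table, chosen by symbol from 7 roles, with no cut on a measured value: 25 code for tight junctions, adherens junctions, the epithelial keratins, the linkers of the apical membrane to actin, and cell polarity, and 10 are structural genes and transcription factors typical of mesenchymal cells. The question was whether the epithelial genes were lower, or the mesenchymal genes higher, in retinal pigment epithelium (RPE) that overexpressed Nrf2, the master activator of the antioxidant response.

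RNA was sequenced from 5 wild-type CD1 mice at postnatal day 40. In each mouse the Nrf2 eye had received AAV-Best1-Nrf2 together with AAV-Best1-GFP, and the control eye AAV-Best1-GFP alone, so that all 10 libraries carry GFP and the Nrf2 eyes received an additional vector and a larger total dose. AAV is an adeno-associated virus used as a gene carrier, the promoter fragment is that of the human Best1 gene, which is active in the RPE, and the Nrf2 insert is the human coding sequence. The retina was removed, the cleaned eyecup was put into an RNA-preserving solution, and RNA was purified from the supernatant, that is, from the material released there and not from sorted cells. A low-input kit was used for amplification.

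The RPE is a single layer of pigmented epithelial cells between the photoreceptors and the choroid. Tight junctions, made of claudins, occludin and scaffold proteins such as ZO-1, seal the space between neighbouring cells and form the outer blood-retinal barrier, while adherens junctions couple cells through cadherins that hold catenins on their inner face. Polarity complexes place the junctions and separate an apical surface with microvilli from the basal side. In an epithelial-mesenchymal transition, factors such as Snail, Slug, ZEB and Twist repress junction genes, and filament proteins of mobile cells such as vimentin and smooth muscle actin appear.

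Of the 35 genes, 33 had enough counts to be tested, all but the transcription factor genes Snai1 and Twist1. Just 2 of them passed, both epithelial and both lower in the Nrf2 eyes: Cldn2, the gene of a claudin that forms pores for cations and water, and Cdh3, the gene of P-cadherin. That is 6.06% of the 33, where 6.33% of all 16362 genes tested passed in either direction, 2.73% of them lower and 3.6% higher. No mesenchymal gene passed in the edgeR test used throughout or in DESeq2, and none had an unadjusted p under 0.05. No epithelial gene passed as higher with either tool, and at an unadjusted p under 0.05 there was 1, Cldn3, where 9.58% of all genes tested were higher at that level.

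The sequence upstream of Cldn2 is shown because this gene had the larger of the 2 differences. It is the 250 bases before the start of the RefSeq transcript on the plus strand, chrX:139800558-139800807 in GRCm38.p6, printed 5′ to 3′ with a TATAAA, which begins 35 bases before the start, in capitals.
Cldn2: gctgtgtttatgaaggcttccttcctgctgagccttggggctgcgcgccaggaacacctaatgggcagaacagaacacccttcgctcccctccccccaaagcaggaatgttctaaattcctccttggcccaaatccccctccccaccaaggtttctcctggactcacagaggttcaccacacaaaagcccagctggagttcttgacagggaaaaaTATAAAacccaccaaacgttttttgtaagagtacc
Searched on both strands, TATAAA was found in 12.4% of all 32851 RefSeq windows of this length, and TGACNNNGC, the core of the antioxidant response element, in 10.2%. The 28 genes of the list with an entry have 39 windows, of which 9 held TATAAA (8 genes) and 3 held TGACNNNGC, those of Ctnnb1, Pard6b and Twist1, and that of Cldn2 did not hold the latter letters. The E-box CAGGTG, the type of site that Snail and ZEB factors bind, was found in 17.2% of all windows and in 7 of the 39, those of F11r, Krt18, Krt8, Ocln, Pard3, Pard6b and Snai1. Each motif was counted on its own, whether or not it overlapped another, and a match is no measure of binding.

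The libraries held 12298404 to 27310638 counts, so a count of 0 allows up to 0.110 to 0.244 CPM (counts scaled to the library total), a limit for counting error alone because the cDNA was amplified. Nfe2l2, the gene of Nrf2, rose from 88.7 ± 12.7 CPM in the control eyes to 353 ± 53.6 CPM in the Nrf2 eyes (SD, n = 5 each). It was higher in 5 of 5 mice, with a log2 difference of 1.97 ± 0.11 (SE, adjusted p = 0.00030). These counts cannot separate reads of the human insert from those of the mouse gene. Markers of the RPE were present, Ttr at 6761 to 20337 CPM and Rgr at 548 to 12388 CPM, but Best1 itself had 2 to 33 counts per library. The summed RPE markers were lower in the Nrf2 eye of every mouse, at 23543 to 49289 CPM in control and 11291 to 30619 CPM in Nrf2 eyes, with 8 of 12 genes past the test and all of these lower. Fewer cells of a type and less RNA per cell cannot be told apart in such bulk samples. Microglia and macrophage markers summed to 146 to 196 CPM in control and 609 to 2720 CPM in Nrf2 eyes, with 12 of 12 higher. Rod markers ranged from 39.6 to 19263 CPM in control and from 60.4 to 7355 CPM in Nrf2 eyes, highest in mouse 2 in both groups. Their sum was lower in the Nrf2 eye of 4 of 5 mice and the median log2 fold change was -1.25 with 0 of 9 positive, though none of the 9 passed.

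**Figure D1:**
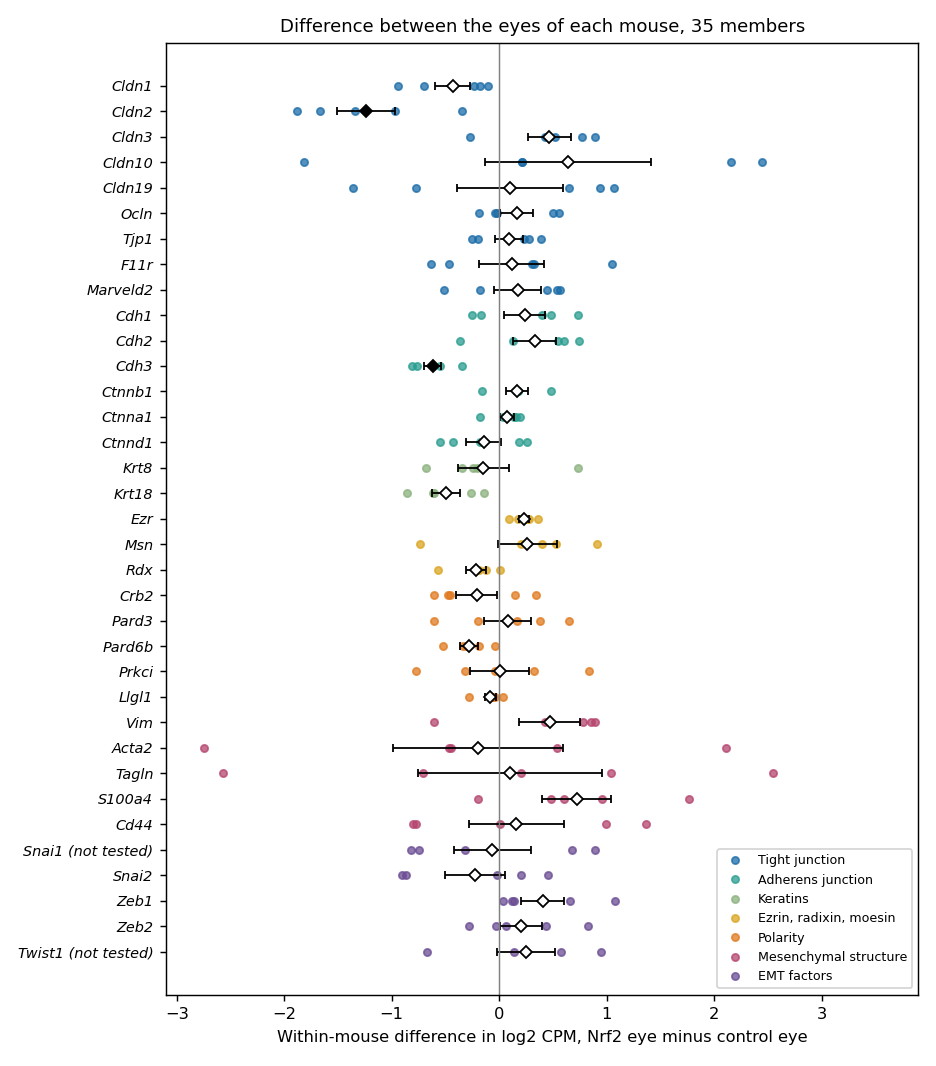
Within-mouse difference in log2 CPM, Nrf2 eye minus control eye, for each of the 35 genes, coloured by role; small points are the 5 mice and diamonds the mean with its SE. The 2 filled diamonds, Cldn2 and Cdh3, passed the test, and both have all 5 mice on the lower side; Acta2, Tagln and Cldn10 have the widest spread between mice.

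Among the 9 tight junction genes, Cldn2 fell, the other 8 did not pass, and the median log2 fold change was 0.12, with 7 positive. Over all genes tested the median was -0.01. Cldn2 (chromosome X, 139800828 to 139811386, mm10) was at 207, 111, 235, 239 and 113 CPM in the control eyes of mice 1 to 5, and at 53.2, 35.3, 118, 98.7 and 94.9 CPM in the Nrf2 eyes. It was lower in the Nrf2 eye of all 5 mice, by least in mouse 5, and the groups overlapped because mouse 3 had a higher Nrf2 eye than the control eyes of mice 2 and 5. The log2 fold change was -1.24 ± 0.27 (SE) with an adjusted p of 0.0192, a level of 0.42 of that in the control eyes. The call was lost without mouse 2 (adjusted p = 0.0826), mouse 3 (0.0600) or mouse 4 (0.0848) and with the rod markers as a covariate (0.119), and without the pairing (0.103), while the fold change stayed between -1.47 and -1.05 over 15 alternatives with adjusted p from 2.3e-06 to 0.119. The fall of the RPE markers in the same eyes and the lower rod markers in 4 of 5 mice stand beside this value, and their part in it was not tested beyond the rod covariate.

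Claudin-1 and claudin-3 are claudins that seal the space between cells. Cldn1 was at 355, 450, 685, 567 and 414 CPM in control and at 285, 280, 630, 309 and 389 CPM in Nrf2 eyes. The level was lower in the Nrf2 eye of all 5 mice, but at a log2 fold change of -0.43 ± 0.16 (SE) the adjusted p was 0.172. Cldn3 was at 46.8, 43.2, 77.5, 49.6 and 51.3 CPM in control and at 63.9, 80.8, 63.2, 69.8 and 93.2 CPM in Nrf2 eyes. It was higher in 4 of 5 mice, all but mouse 3, with a log2 fold change of 0.47 ± 0.20 (SE) and an adjusted p of 0.187. Without mouse 3 Cldn3 passed as higher, at 0.71 on the log2 scale (adjusted p = 0.0310, over all 15 alternatives 0.0310 to 0.470).

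The 2 remaining claudins of the list were at lower levels. Cldn10 was at 11.9 ± 7.47 CPM in control and 19.7 ± 14.9 CPM in Nrf2 eyes, a log2 difference of 0.67 ± 0.77 (SE, adjusted p = 0.675). For Cldn19, a main claudin of human RPE, the means were 8.64 ± 2.58 and 10.3 ± 4.92 CPM. Its log2 difference was 0.12 ± 0.49 (SE, adjusted p = 0.928). In both genes the mice went in both directions, and the SE was larger than the difference.

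F11r, the gene of the junctional adhesion molecule JAM-A, had the highest level per length of the tight junction genes averaged over all 10 libraries, though Cldn1 was higher in the control eyes at 284 ± 71.1 TPM. F11r was at 266 ± 101 TPM (counts scaled to exon length and library) in control and 276 ± 84.1 TPM in Nrf2 eyes. It was at 190, 251, 279, 146 and 399 CPM in control and at 373, 314, 177, 191 and 307 CPM in Nrf2 eyes. The ranges overlapped widely, with an adjusted p of 0.881. Tjp1, the gene of ZO-1, was at 72.4 ± 19.5 and 76.8 ± 15.3 CPM, Ocln, the gene of occludin, at 60.9 ± 10.2 and 68.6 ± 9.25 CPM, and their log2 fold changes were 0.09 ± 0.13 and 0.16 ± 0.15 (SE). Marveld2, the gene of tricellulin, which seals the points where 3 cells meet, had a log2 fold change of 0.17 ± 0.22 (SE).

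**Figure D2:**
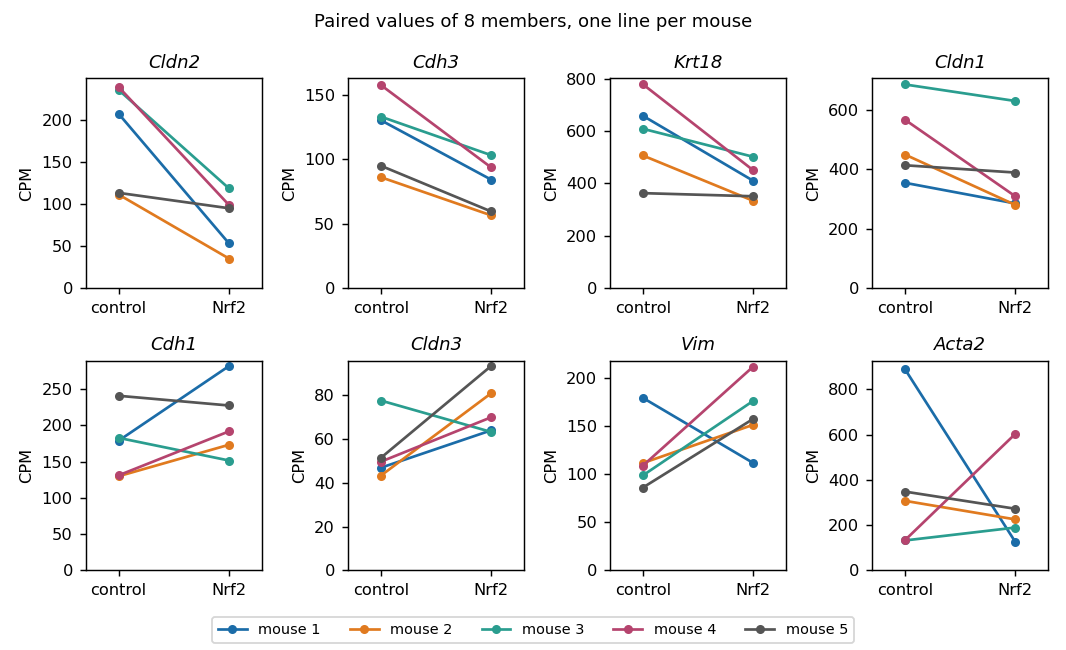
CPM in the control and Nrf2 eye of each mouse for 8 genes, with 1 line per mouse and every axis starting at 0. All 5 lines go down for Cldn2, Cdh3, Krt18 and Cldn1, of which the first 2 passed the test, whereas for Cdh1, Cldn3, Vim and Acta2 the lines run in both directions.

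In the adherens junction, Cdh3 fell and the genes of the other 2 cadherins and of the 3 catenins did not pass. Cdh3 (chromosome 8, 106510891 to 106557297, mm10) was at 130, 86.2, 133, 158 and 95.1 CPM in the control eyes of mice 1 to 5, and at 84.3, 56.6, 103, 93.8 and 59.6 CPM in the Nrf2 eyes. Every mouse was lower, with within-mouse log2 differences from -0.82 to -0.35, and the log2 fold change was -0.62 ± 0.08 (SE) with an adjusted p of 0.0117, or 0.65 of the control level. The groups overlapped, since the control eyes differed from each other by more than the eyes of some pairs. Its call was lost without mouse 2 (adjusted p = 0.0550) and with the rod covariate (0.0770), and without the pairing (0.205), while the fold change stayed between -0.63 and -0.54 over 15 alternatives, of which 12 passed, with adjusted p from 1.5e-05 to 0.205. As for Cldn2, the RPE marker sum was lower in the same 5 eyes, and its part was not tested.

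Cdh1, the gene of E-cadherin, lies next to Cdh3 on chromosome 8 (106603351 to 106670246) and did not pass. It was at 179, 130, 183, 131 and 241 CPM in control and at 282, 173, 151, 192 and 227 CPM in Nrf2 eyes. The Nrf2 eye was higher in mice 1, 2 and 4 and lower in mice 3 and 5, with a log2 fold change of 0.24 ± 0.19 (SE) and an adjusted p of 0.534. Cdh2, the gene of N-cadherin, which often replaces E-cadherin in mesenchymal cells, was at 25.1 ± 5.63 and 32.2 ± 8.83 CPM and higher in 4 of 5 mice (log2 fold change 0.33 ± 0.20, SE, adjusted p = 0.385). No test of the difference between the cadherins was made.

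None of the 3 catenin genes passed. Ctnnb1, the gene of beta-catenin, which binds cadherin tails and also serves Wnt signalling, was at 211 ± 32.5 TPM in control and 229 ± 19.5 TPM in Nrf2 eyes (adjusted p = 0.542), and its mean over all libraries, 219.8 TPM, was nearly that of Ctnna1, 219.3 TPM. Ctnna1, the gene of alpha-catenin, the link to actin, was at 499 ± 56.5 and 527 ± 29.6 CPM (adjusted p = 0.815). Ctnnd1, the gene of p120-catenin, was at 161 ± 31.2 and 146 ± 25.4 CPM (adjusted p = 0.695), and 61.2% of its exon bases are shared with Gm28635, which had no count, so its own count may be affected.

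Krt8 and Krt18 code for the paired keratins of simple epithelia, and neither passed. Averaged over all 10 libraries, Krt18 had the highest level per length of the 35 genes, at 1132 ± 292 TPM in control and 770 ± 132 TPM in Nrf2 eyes. It was at 658, 507, 609, 779 and 363 CPM in control and at 410, 334, 502, 450 and 351 CPM in Nrf2 eyes. All 5 mice were lower, with hardly any difference in mouse 5, and the log2 fold change was -0.50 ± 0.13 (SE) with an adjusted p of 0.0821. DESeq2 called it lower (adjusted p = 0.0118), and no other alternative did, with adjusted p up to 0.326. Krt8 was at 340 ± 105 and 304 ± 74.6 CPM, which differ by -0.15 ± 0.24 on the log2 scale (SE), and 1 mouse of 5 was higher.

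The ezrin, radixin and moesin genes, whose proteins tie the apical membrane and its microvilli to actin, gave no call. Ezr, the gene of ezrin, led the class at 718 ± 82.1 TPM in control and 822 ± 58.1 TPM in Nrf2 eyes. It was at 946, 709, 913, 826 and 832 CPM in control and at 1012, 921, 1092, 922 and 1061 CPM in Nrf2 eyes. Every mouse was higher by a small amount, with a log2 fold change of 0.23 ± 0.05 (SE) and an adjusted p of 0.290. Msn and Rdx had log2 fold changes of 0.27 ± 0.28 and -0.22 ± 0.10 (SE).

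None of the 5 polarity genes passed, with log2 fold changes between -0.28 and 0.08. Prkci, the gene of the atypical protein kinase C iota that drives apical identity, had the highest level per length, 94.1 ± 39.1 TPM in control and 86 ± 13.4 TPM in Nrf2 eyes. It was at 183, 182, 179, 85.4 and 302 CPM in control and at 217, 179, 142, 159 and 188 CPM in Nrf2 eyes, and the 2 ends of the range were both control eyes. Pard6b, whose protein holds this kinase in the PAR complex, was lower in 5 of 5 mice, at 85.7 ± 9.76 and 71.8 ± 12.2 CPM (log2 fold change -0.28 ± 0.08, SE, adjusted p = 0.162). Pard3, the scaffold gene of the same complex, Crb2, of the Crumbs complex at the apical edge, and Llgl1, of the basolateral side, had log2 fold changes of 0.08, -0.21 and -0.08, all with adjusted p over 0.5.

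**Figure D3:**
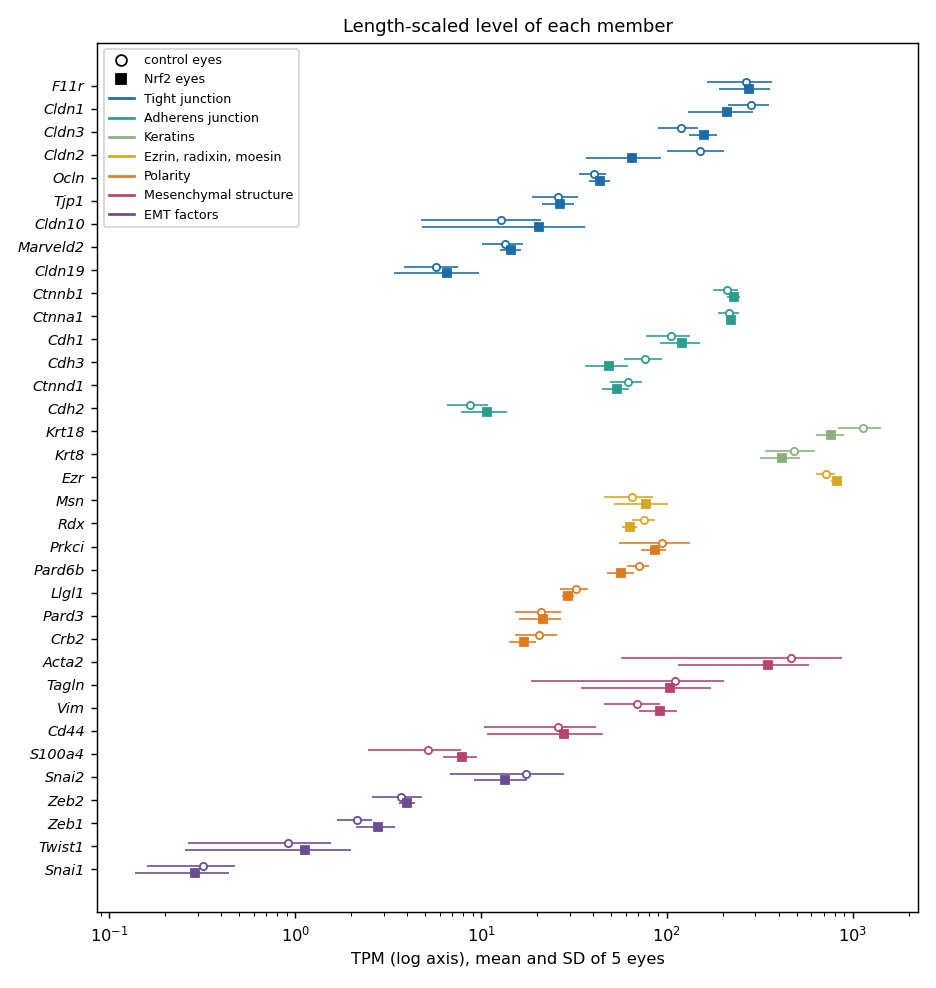
Level per length of each of the 35 genes as TPM on a log axis, mean and SD of the 5 control eyes (open circles) and of the 5 Nrf2 eyes (filled squares), ordered by level within each role. Krt18 and Ezr lead the epithelial genes, Acta2 leads the mesenchymal genes with a wide SD, and Snai1 and Twist1 are the lowest.

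The mesenchymal genes gave no call, with log2 fold changes from -0.23 to 0.75 and a median of 0.18 over the 8 tested. Vim, the gene of vimentin, an intermediate filament of mesenchymal cells that glia and immune cells also express, was at 179, 111, 98.6, 109 and 86 CPM in control and at 112, 151, 176, 212 and 157 CPM in Nrf2 eyes. It was higher in 4 mice and lower in mouse 1, whose control eye stood above the other control eyes. The log2 fold change was 0.48 ± 0.28 (SE) with an adjusted p of 0.317. Vim passed as higher without mouse 1, at 0.78 (adjusted p = 0.0164), and with fibroblast and mural markers as a covariate, at 0.57 (0.0172), over a range of 0.0164 to 0.723 in 15 alternatives. Vim was highest in the Nrf2 eye of mouse 4 and the control eye of mouse 1, where the fibroblast and mural marker sums were also highest. The microglia and macrophage markers were higher in all 5 Nrf2 eyes, also in mouse 1, where Vim was lower. The part of the microglia and macrophage markers in the Vim values was not tested.

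Acta2 and Tagln code for smooth muscle actin and transgelin of contractile cells, and their levels varied widely between eyes, also between the eyes of the same mouse. Acta2 was at 888, 307, 132, 133 and 348 CPM in control and at 126, 225, 189, 603 and 272 CPM in Nrf2 eyes. The control eye of mouse 1 and the Nrf2 eye of mouse 4 were high, and the log2 fold change of -0.18 ± 0.79 (SE) moved from -0.70 without mouse 4 to 0.44 without mouse 1, and was -1.08 with the rod covariate. Tagln was at 77.5 ± 63 and 76.1 ± 50.2 CPM, 0.12 ± 0.86 (SE) on the log2 scale. Mural and smooth muscle markers, a list that holds neither gene, were highest in the same 2 libraries, at 558 and 536 CPM of a range from 126, and with the fibroblast and mural markers as a covariate the log2 fold changes were 0.050 for Acta2 and 0.37 for Tagln, neither past the test. Reads of Acta2 could be shared with other actin genes of similar sequence, and 62.4% of the exon bases of Tagln face the antisense gene Gm48529.

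Cd44, a receptor for hyaluronan, was at 57.8, 60.3, 50.3, 20.7 and 124 CPM in control and at 142, 61.3, 28.5, 43.2 and 77.2 CPM in Nrf2 eyes, with wide overlap of the groups (adjusted p = 0.891). S100a4, a calcium-binding protein gene used as a marker of fibroblasts, rested on 8 to 47 counts in control and 24 to 47 in Nrf2 eyes (log2 fold change 0.75 ± 0.32, SE, adjusted p = 0.341), and 51.7% of its exon bases are shared with Gm42674, which had no count.

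The 5 transcription factors were detected in every library, Snai1 and Twist1 at few counts. Snai2, the gene of Slug, led them at 17.4 ± 10.5 TPM in control and 13.4 ± 4.23 TPM in Nrf2 eyes (log2 fold change -0.23 ± 0.28, SE). Zeb1 was at 7.85 and 10.5 CPM and higher in all 5 mice, with a log2 fold change of 0.41 ± 0.20 (SE) and an adjusted p of 0.362, and Zeb2 was at 26.4 and 29.6 CPM (adjusted p = 0.634). Snai1, the gene of Snail, had 1 to 7 counts per control library and 2 to 4 per Nrf2 library, and Twist1 had 4 to 31 and 7 to 19, and the filter on low counts left both untested.

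Counted without the threshold, on normalized log2 CPM, 5 of the 33 genes were lower in the Nrf2 eye of 5 of 5 mice (Cldn1, Cldn2, Cdh3, Krt18 and Pard6b). On the same scale 2 were higher in 5 of 5 (Ezr and Zeb1). Of all genes tested, 10.9% were lower and 9.23% higher in this way. The same 5 lower genes had an unadjusted p under 0.05, beside 9.53% of all genes tested that were lower. In no gene of the list were the groups apart, beside 2.41% of all genes that lay apart on the lower side and 3.87% on the higher side. The log2 fold change was under 0.5 in size for 29 of the 33, as it was for 80.0% of all genes tested.

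Markers of the epithelium that covers the ocular surface, which has junctions of its own, were abundant in these libraries. The 8 markers (Krt5, Krt14, Krt15, Krt12, Trp63, Dsg3, Krt6a and Perp) took 1.05% to 4.68% of all counts, 10515 to 46757 CPM in control and 13980 to 38408 CPM in Nrf2 eyes, and Krt12, the keratin of corneal epithelium, ranged from 3.46 to 29094 CPM among control eyes alone. They were higher in the Nrf2 eye in 3 of 5 mice and none of the 8 passed. The sum was highest in the control eye of mouse 5, where 7 of the 35 genes had their highest level, and lowest in the control eye of mouse 4, where 11 had their lowest, beside 13.6% and 16.5% of all genes tested. Both held for 5 of the 35 genes, Tjp1, F11r, Ctnnd1, Prkci and Llgl1, beside 5.05% of all genes tested. The difference between eyes had the sign of the difference in marker sum in all 5 mice for 6 of the 35. They were Tjp1, F11r, Marveld2, Cdh1, Pard3 and Cd44, beside 5.92% of all genes tested. Each of these shares was larger in the list than over all genes tested, and this was not tested. Cldn2 and Cdh3 were not among the genes named. With the mean log2 CPM of the surface epithelium markers as a covariate, their log2 fold changes were -1.15 (adjusted p = 0.0221) and -0.59 (adjusted p = 0.0182).

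**Figure D4:**
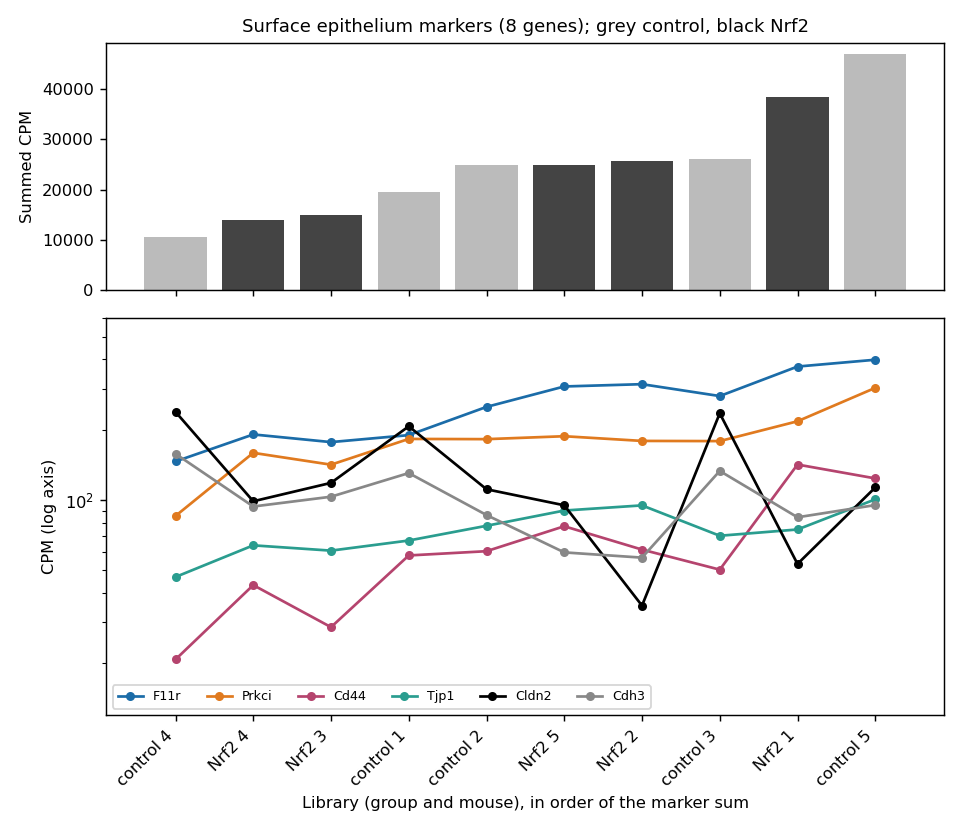
Upper panel, summed CPM of 8 surface epithelium markers in the 10 libraries, ordered by that sum, with control eyes in grey and Nrf2 eyes in black; lower panel, CPM on a log axis of 6 genes in the same order. F11r, Prkci and Tjp1 are lowest on the left, in the control eye of mouse 4, and highest on the right, in the control eye of mouse 5, whereas Cldn2 and Cdh3 are highest in the control eye of mouse 4.

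Around these genes, 119 others of the same pathways were listed and 112 tested, of which 3 rose and 4 fell, 6.25% beside 6.33% of all genes. Among 21 other tight junction genes, Arhgef18, an activator of RhoA at junctions, fell from 264 ± 17.7 to 171 ± 23.2 CPM (log2 fold change -0.65 ± 0.09, SE, adjusted p = 0.0121), with no overlap between groups. Amotl2, an angiomotin family scaffold gene, fell from 191 ± 34.4 to 134 ± 25.2 CPM (-0.53 ± 0.10, SE, adjusted p = 0.0284). Cldn11, the gene of another claudin, rose from 0.198 to 2.30 CPM (adjusted p = 0.0202), with at most 10 counts in any control library and 31 to 81 in the Nrf2 libraries. All 3 calls were lost with the rod covariate (0.0635 to 0.155) and without at least 1 mouse: Arhgef18 without mouse 2 (0.0579), Cldn11 without mouse 3 (0.0639) or 5 (0.0549), and Amotl2 without mouse 2, 3, 4 or 5 (0.0795 to 0.111). Over all alternatives the log2 fold changes stayed at -0.67 to -0.57, 3.25 to 4.31 and -0.55 to -0.46, in that order.

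Of 16 other polarity genes, Dlg3, a membrane scaffold of the Discs large family, fell from 175 ± 24.2 to 108 ± 16.1 CPM (-0.72 ± 0.09, SE, adjusted p = 0.00743). The groups did not overlap, and it passed in all 15 alternatives. No gene passed among 21 other adherens junction and desmosome genes (2 higher and 1 lower at an unadjusted p under 0.05), 12 other keratins and microvillus genes (0 higher and 2 lower) and 10 regulators of the epithelial state (1 higher and 0 lower). At that level 9.58% of all genes tested were higher and 9.53% lower. Krt5, Krt14 and Perp of these lists are also surface epithelium markers.

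Of 32 other genes linked to epithelial-mesenchymal transition, 2 rose and 1 fell. Ccn2, the gene of connective tissue growth factor, rose from 114 ± 44.2 to 362 ± 82.9 CPM (1.71 ± 0.29, SE, adjusted p = 0.00807). All 5 Nrf2 eyes, at 250 to 444 CPM, lay above all control eyes, at 59.1 to 171 CPM, and the call was lost with the rod covariate (adjusted p = 0.0632, beside 4.4e-11 as the lowest of 15), with log2 fold changes from 1.54 to 1.92 throughout. Mmp9, the gene of a secreted gelatinase that myeloid cells also make, rose from 0.685 ± 1.01 to 14.3 ± 6.5 CPM (5.11 ± 0.69, SE, adjusted p = 0.00875), in the same eyes in which the microglia and macrophage markers were higher. Itgav, the gene of the alpha-v integrin subunit, which in the RPE takes part in uptake of photoreceptor outer segments, fell from 882 ± 587 to 359 ± 203 CPM (-1.23 ± 0.32, SE, adjusted p = 0.0384), a call lost without mouse 1 (0.0848), 2 (0.0823) or 5 (0.111) and with the rod (0.152) or fibroblast and mural (0.0522) covariate, with log2 fold changes from -1.37 to -0.89 throughout. The RPE marker sum was lower in the same 5 Nrf2 eyes as Itgav, Dlg3, Arhgef18 and Amotl2, and its part in these values was not tested.

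Markers of further cell types of the eyecup gave few calls. Fibroblast markers summed to 501 to 1044 CPM in control and 414 to 1389 CPM in Nrf2 eyes (0 of 9 tested). Endothelial markers summed to 23.7 to 136 and 61.4 to 141 CPM (0 of 10), and mural markers to 135 to 558 and 126 to 536 CPM (1 of 10, lower). The log2 fold change was positive for 7 of the 9 fibroblast, 9 of the 10 endothelial and 6 of the 10 mural genes. Skeletal muscle markers were at 78.8 to 148 and 7.74 to 947 CPM (0 of 10). All 10 had a positive log2 fold change (median 0.70), but their sum was lower in the Nrf2 eyes of mice 1 and 2, at 7.74 and 28.7 CPM. In mice 3 to 5 it was higher, at 601, 406 and 947 CPM. Ciliary epithelium markers were at 1159 to 2243 and 1744 to 2553 CPM (0 of 7, 6 positive), and choroidal melanocytes at 567 to 2502 and 809 to 2272 CPM (1 of 7, lower). The inner retina list summed to 1145 to 1655 and 1065 to 1996 CPM (0 of 8), most of it Trpm1, Slc6a9 and Pax6, while Grm6, Vsx1 and Gad1 were at 0 or under 0.1 CPM in at least 1 library of each group. Mueller glia markers were at 3784 to 6699 and 2498 to 4496 CPM (1 of 6, lower). The Mueller glia sum was lower in 5 of 5 mice, while the list's median log2 fold change was 0.22 with 4 of 6 positive; the gene that fell, Rlbp1 (2657 to 722 CPM), is also an RPE gene. Monocyte and neutrophil markers were at 32.7 to 193 and 46.7 to 180 CPM (0 of 3). Nearly all of that sum was Plac8, at 30.8 to 192 and 40.4 to 176 CPM, the other listed genes were under 4 CPM, and Ngp had no count.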

How the data were processed

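Polyadenylated RNA purified from the supernatant of 10 preserved eyecups was sequenced. The authors aligned reads with STAR to mm10 with Ensembl transcripts and counted them per gene with featureCounts, and in parallel estimated abundances with Salmon (0.8.2 in the submitters' processing notes). Which of these gave the table, the strand setting and the filters are not given in the sources used here. The deposited table holds unnormalized counts, in whole numbers, for each Ensembl gene identifier. Of 47729 genes, 15729 had no count, and 0 columns belonged to other samples. Symbols, positions and exon lengths came from GENCODE M21 (same build), which held 99.1% of the identifiers, and promoter sequences from RefSeq (GRCm38.p6).

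The 16362 genes kept by filterByExpr were tested with edgeR 4.0.16 (R 4.3.3; limma 3.58.1), quasi-likelihood, TMM normalization, and the mouse as a block beside the group, as the study paired the eyes. The Benjamini-Hochberg adjustment ran over all genes tested, with a threshold of 0.05. The SE is that of the 5 within-mouse differences in TMM-normalized log2 CPM (prior count of 2). For single genes, the mice called higher or lower were counted on the same differences. CPM and TPM were computed from the counts without the TMM factors. Eyes were paired by the animal number in the labels, and the deviations of eyes of the same mouse from their group means correlated at 0.19 to 0.71, beside -0.42 to 0.28 (median -0.08) for eyes of different mice. No 2 libraries agreed within sampling noise (smallest chi-square per degree of freedom 34.5).

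The genes, the pathway and marker lists, and their tests were chosen with earlier results of these data known. By rule, genes of the list past the threshold were given with the value in every eye. Every claudin and cadherin and the highest TPM of each role were given with group means or the value in every eye. Up to 3 passing genes of each further pathway list were also named. Krt8, Tjp1 and the other members named were described in addition. Alternatives were no block, DESeq2 1.42.0, RLE factors, library totals, 2 other filters (none, and a mean of at least 50 counts), each mouse left out, rod and fibroblast plus mural markers as covariates, thinning to the smallest total and, chosen after seeing the data, the surface epithelium covariate. Each covariate was the mean log2 CPM of its marker genes, not their summed CPM. The fit was tested on simulated data. The result of 1 further marker list is not reported here.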

Additional observations from a re-analysis of the deposited data

Results flagged for a closer look

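In 4 of 70 groups of 5 eyes, 1 eye stood apart from the others on the log2 CPM scale, its gap to the nearest eye taking more than 0.71 of the group's range, where chance gives 3.5. Vim in the control eye of mouse 1 was at 7.47 against 6.48 to 6.76 in the other control eyes, a gap of 0.714 of the range. In the same library Msn was at 7.76 against 6.89 to 7.14, a gap of 0.720. Pard3 in the Nrf2 eye of mouse 1 was at 7.44 against 6.56 to 6.79, a gap of 0.742. Snai1 in the Nrf2 eye of mouse 4 was at -1.28 against -2.19 to -1.95, a gap of 0.734, and rested on at most 4 counts.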

How the results depend on the processing

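Over 15 alternatives and the 33 genes tested, 453 of 494 values kept direction and call, 29 changed sign, 8 lost and 4 gained a call, and 18 genes kept both throughout. Where not stated, the cause was not tested; leaving out a mouse also leaves fewer samples. The 2 lower epithelial genes became 0 with no replicate block (Cldn2 -1.19, adjusted p = 0.103; Cdh3 -0.61, adjusted p = 0.205), although the eyes are paired by mouse, 3 in DESeq2, with Krt18 added (adjusted p = 0.0118), 0 with the rod covariate, and 0 to 2 when each mouse was left out. The count of higher epithelial genes, 0, became 0 to 1 with a mouse left out, and that of higher mesenchymal genes 1 with the fibroblast and mural covariate and 0 to 1 with a mouse left out. The 7 calls among other pathway genes became 12 in DESeq2, 2 with the rod covariate and 4 to 8 with a mouse left out, 4 without mouse 2 or 5. Over all genes, 1036 calls became 1812 in DESeq2, 408 with the rod covariate and 584 to 857 with a mouse left out. With no replicate block, the pairing ignored, there were 755 calls, 69.3% of them higher against 56.9%, and 687 were shared with the paired test; among other pathway genes Amotl2 (adjusted p = 0.169) and Itgav (0.204) also lost their calls. Among the 33 genes and the 7 other pathway genes named, the block changed no other call.

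Sign changes were limited to 10 genes that passed in no setting. With the rod covariate the log2 fold change was -0.15 for Cldn19, -0.017 for Tjp1, -6.0e-05 for Msn, -0.0091 for Pard3, -0.26 for Prkci, -0.80 for Tagln and -0.079 for Cd44. With the surface epithelium covariate it was -0.025 for F11r, -0.016 for Pard3, -0.13 for Prkci and -0.066 for Cd44. With the fibroblast and mural covariate it was 0.050 for Acta2 and -0.011 for Prkci, with no block -0.092 for Prkci and -0.050 for Tagln, and after thinning -0.0017 for Prkci. Leaving out each mouse gave -0.098 to 0.52 for Cldn19, -0.084 to 0.36 for F11r, -0.37 to 0.017 for Krt8, -0.028 to 0.25 for Pard3, -0.17 to 0.20 for Prkci, -0.70 to 0.44 for Acta2, -0.44 to 0.77 for Tagln and -0.12 to 0.46 for Cd44. Depth limits Snai1, Twist1 and S100a4.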
